A study of Mus musculus with 16 samples.

Results

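The lysosome pathway genes are the genes that the deposited table annotates to the KEGG pathway of that name, kept where at least 10 counts were reached in at least 4 libraries. Of 150 annotated genes, 118 passed, out of 55359 mouse genes in the table, and all 118 were among the 17737 genes tested. They were sorted by role, from their symbols, into 13 cathepsins and other proteases, 19 glycosidases, 8 sulfatases, 12 lipid, nucleic acid and phosphate hydrolases with saposins, 22 membrane proteins, 8 V-ATPase subunits, 25 adaptor and clathrin subunits, 6 genes of enzyme targeting and 5 other annotated genes. Each of these 5 shares an ortholog number with another gene annotated to the pathway, and most of them overlap such a gene in the genome. Their place in the pathway may therefore come from the annotation alone. The 32 annotated genes below the minimum were mostly proteases of other tissues and genes listed beside an enzyme because they share its ortholog number.

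The tissue was cerebral cortex of mice that had received an adeno-associated virus (AAV), used as a gene carrier, and its RNA was sequenced in a study of neuronal intranuclear inclusion disease and of polyG, the glycine chains read from GGC repeats. The 16 libraries formed 4 groups of 4 by construct: ATG-GGC100, with a long GGC repeat, ATG-GGN100dCT, with GGN (any glycine codon) in its place, TAG-GGC100, with a long repeat and TAG, a stop codon, where the others name ATG, the start codon, and ATG-GGC11, with a short repeat. All groups received AAV, and no uninjected cortex was analysed here. Not given in the sources used here are the meaning of dCT and the AAV serotype, promoter, strain, age, injection site and time after injection. Whether each library was a separate animal is not stated in the labels either, and p-values then describe only how these samples spread, which may be technical.

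Lysosomes are acid organelles in which proteases, glycosidases, sulfatases and lipases break down material taken up from outside or delivered from inside the cell. Soluble enzymes are carried there by mannose 6-phosphate receptors and clathrin adaptors, the V-ATPase pumps in protons, and membrane proteins shield the membrane and export the products. In the brain all cells have lysosomes, neurons depend on them over a lifetime, and microglia, the resident phagocytes, carry especially large amounts of several cathepsins. TFEB, TFE3 and MITF are transcription factors that drive many lysosomal genes through a short promoter element known as the CLEAR element.

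Library totals ran from 12838296 to 19130232 counts, and 98 of the 118 genes had at least 100 counts in every library. Levels are given as FPKM, fragments per kilobase of exonic length, scaled to the library total, as the authors deposited them. A gene is said to rise or fall where edgeR's quasi-likelihood test on the counts gave a Benjamini-Hochberg adjusted p under 0.05 over all 17737 genes; fold changes are log2 values with their standard errors (SE), and levels are means ± SD with n = 4 libraries a group. Markers of microglia that are not pathway genes moved with several results. Their summed level (12 genes, none at 0) was 331 to 413 FPKM in ATG-GGC100 libraries, 157 to 248 FPKM in ATG-GGN100dCT, 166 to 196 FPKM in TAG-GGC100 and 166 to 226 FPKM in ATG-GGC11. The abundant markers weigh most in this sum, and the 12 did not differ alike. C1qa had 1573 to 2202 counts in ATG-GGC100 libraries and 552 to 922 in ATG-GGC11. P2ry12 had 731 to 954 and 515 to 756 counts in that order. In bulk tissue, more cells of a type and more RNA per cell cannot be told apart. Replicate 3 of ATG-GGN100dCT stood apart, with the lowest microglial sum, the lowest summed oligodendrocyte markers of all libraries (315 FPKM) and the highest summed neuronal markers (1051 FPKM). The numbers of called pathway genes in comparisons of ATG-GGN100dCT are therefore also given without this library. Other counts for that group include it.

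Across all 16 libraries the pathway genes spanned 0.15 to 557 FPKM with a median of 9.68 FPKM. Psap, the precursor of the saposins that help enzymes reach sphingolipids, held the first place with 17.5% of the summed level of the pathway. It was followed by Lamp1, the most abundant lysosomal membrane glycoprotein (129 FPKM), Ids, the sulfatase missing in Hunter syndrome (121 FPKM), and Ctsd, the main aspartic protease of the lysosome (119 FPKM). The 10 most abundant genes held 49.3% of the sum. The summed level of the 118 genes was 3407 to 3591 FPKM in ATG-GGC100 libraries, 3087 to 3310 FPKM in ATG-GGN100dCT, 2917 to 3081 FPKM in TAG-GGC100 and 2951 to 3117 FPKM in ATG-GGC11. The ATG-GGC100 libraries lay above all others, while ATG-GGN100dCT overlapped ATG-GGC11. Of the 484 FPKM by which the ATG-GGC100 mean lay above the ATG-GGC11 mean, proteases made up 40.8%, and Ctsd and Ctss alone 13.9% and 13.7%. These sums are scaled to library totals, not by the TMM factors of the tests, and a few abundant genes weigh most in them.

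**Figure D1:**
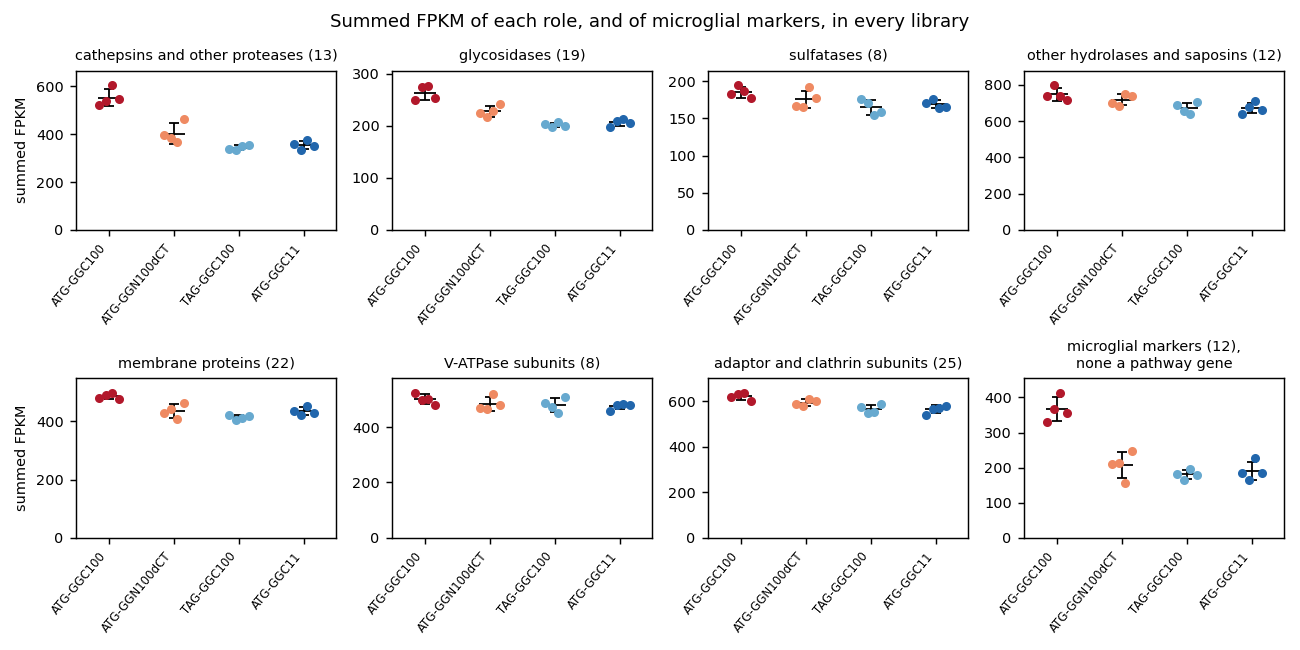
Summed FPKM of the genes of 7 roles, and of 12 microglial marker genes outside the pathway, in each library (points), with the group mean and SD (bars). Summed proteases were 552 ± 36.1 FPKM in ATG-GGC100 and 355 ± 17 FPKM in ATG-GGC11, with no overlap. The V-ATPase sums of 501 ± 18.4 and 476 ± 10.6 FPKM lay close together.

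The comparison of ATG-GGC100 with ATG-GGC11 sets the long GGC repeat against the short one, both with ATG. Of the 118 genes, 22 rose and 1 fell in ATG-GGC100; over all genes tested, 2.2% rose and 1.3% fell (3.5% either way), against 18.6% and 0.847% of the pathway genes. The 2 groups did not overlap in FPKM for 40 of the genes, or 33.9%, against 11.3% of all genes tested. The median log2 fold change of the pathway genes was 0.07, against -0.0015 for all genes. By role, 9 of 13 proteases, 5 of 19 glycosidases and 5 of 22 membrane proteins rose, against 1 each of 8 sulfatases, 12 other hydrolases and saposins and 25 adaptor subunits. No V-ATPase subunit, targeting gene or other annotated gene passed with edgeR or DESeq2, with 1 of each at an unadjusted p under 0.05. Leaving out each of the 16 libraries in turn kept 15 of the 23 calls each time. Beside them, 9 of the 12 microglial markers rose, with a median log2 fold change of 0.72 over the 12. P2ry12, Tmem119 and Itgam were not called. Of 5 markers of border macrophages 1 rose (Mrc1). The summed level of these 5 was 4.33 to 6.18 FPKM in ATG-GGC100, against 1.52 to 3.77 FPKM in ATG-GGC11. The part of either list in these results was not tested.

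**Figure D2:**
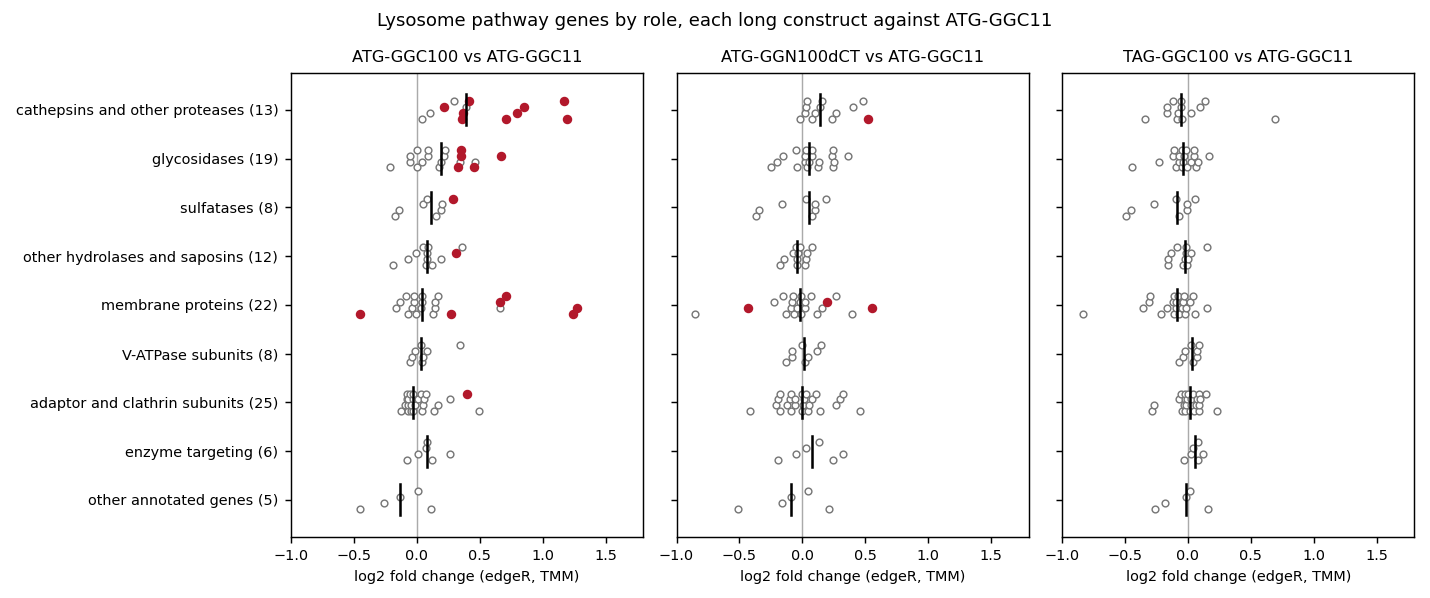
Log2 fold change of each pathway gene (points) by role, for each of the 3 other constructs against ATG-GGC11, with called genes filled in red, other genes open, and the median of a role as a black bar; the number of genes is in brackets. In ATG-GGC100 the proteases have a median of 0.39 and the adaptor subunits of -0.03, and TAG-GGC100 has no called gene.

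Proteases had the highest median of the 9 roles. All 13 had a positive log2 fold change, also with library totals or median-ratio scaling, and the class median was 0.39. Ctss encodes cathepsin S, a cysteine protease of phagocytes that works also at neutral pH and processes the invariant chain of MHC class II (ENSMUSG00000038642, chromosome 3, 95434097 to 95463714 on the plus strand in the table's coordinates). It measured 104, 115, 134 and 115 FPKM in the ATG-GGC100 libraries, against 54, 46.1, 51.3 and 50.6 FPKM in ATG-GGC11. Every ATG-GGC100 library was far above every ATG-GGC11 library. The log2 fold change was 1.17 (SE 0.10, adjusted p = 1.2e-05).

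Ctsd, cathepsin D, lies on chromosome 7 (141929648 to 141941775, minus strand). It had 163, 155, 184 and 164 FPKM in ATG-GGC100 libraries, against 99.5, 89.4, 110 and 97.6 FPKM in ATG-GGC11. The groups were well apart, and the log2 fold change was 0.70 (SE 0.09, adjusted p = 6.44e-05). Ctsb, cathepsin B, a cysteine protease, had a smaller difference. It had 108, 107, 117 and 111 FPKM in ATG-GGC100 libraries, against 91.8, 91.3, 97.1 and 91.4 FPKM in ATG-GGC11. The libraries did not overlap and the log2 fold change was 0.21 (SE 0.06, adjusted p = 0.0392), but the call was lost without any one of the 8 libraries compared, of TAG-GGC100 replicates 1 and 2 or of ATG-GGN100dCT replicate 1, with an adjusted p of up to 0.153. It was also lost with no filter on low counts and with a block for the replicate number.

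Ctsz, cathepsin Z, a carboxypeptidase, had 31.8, 37.9, 45.9 and 40.9 FPKM in ATG-GGC100 libraries, against 22.2, 19.1, 23.1 and 23.1 FPKM in ATG-GGC11. Its log2 fold change was 0.80 (SE 0.12, adjusted p = 0.000619), and its ATG-GGC100 libraries were also spread more widely. Ctsc, cathepsin C, the dipeptidyl peptidase that activates serine proteases of immune cells, was low in level. It had 2.28, 2.63, 2.95 and 2.64 FPKM in ATG-GGC100 libraries, against 1.13, 1.1, 1.13 and 1.09 FPKM in ATG-GGC11. These values rest on 81 to 313 counts a library over all groups. The ATG-GGC11 values were almost equal, and the log2 fold change of 1.19 (SE 0.14, adjusted p = 6.44e-05) was the largest among the proteases. Ctsh, cathepsin H, an aminopeptidase, averaged 4.12 ± 0.402 FPKM in ATG-GGC100 and 2.21 ± 0.435 FPKM in ATG-GGC11 (log2 fold change 0.85, SE 0.14, adjusted p = 0.00141).

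The other 3 proteases that rose were Lgmn, Ctso and Ctsl. Lgmn, legumain, which cuts after asparagine and processes other cathepsins, averaged 59.6 ± 3.47 FPKM in ATG-GGC100 and 43.5 ± 1.46 FPKM in ATG-GGC11 (log2 fold change 0.41, SE 0.06, adjusted p = 0.000851). Ctso averaged 9.29 ± 0.546 FPKM in ATG-GGC100 and 6.97 ± 0.418 FPKM in ATG-GGC11 (0.37, SE 0.06, adjusted p = 0.00195). Ctsl, cathepsin L, averaged 14.8 ± 0.835 FPKM in ATG-GGC100 and 11.2 ± 0.418 FPKM in ATG-GGC11 (0.36, SE 0.07, adjusted p = 0.00285). None of these 3 had overlapping libraries or lost its call without any 1 library. Tpp1, the tripeptidyl peptidase missing in a childhood form of neuronal ceroid lipofuscinosis, had 15.4 ± 0.741 FPKM in ATG-GGC100 and 13.9 ± 0.683 FPKM in ATG-GGC11 and did not pass (log2 fold change 0.11, 95% interval -0.03 to 0.24, adjusted p = 0.43). Ctsf, cathepsin F, did not pass either (0.04, interval -0.12 to 0.21, adjusted p = 0.835), nor did the low Ctsk and Napsa, named after their values were seen to complete the class. The genes of Ctsb and Ctsz overlap Fdft1 and Nelfcd on the other strand. The labels' protocol names no strand-marking step, and reads from such stretches cannot be told apart. Ctsa, the protective protein of beta-galactosidase, is not annotated to the pathway in the table; looked up for that reason and with its value known, it had 21.3 ± 0.91 FPKM in ATG-GGC100 and 17.3 ± 0.87 FPKM in ATG-GGC11 (0.25, SE 0.06, adjusted p = 0.0279).

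**Figure D3:**
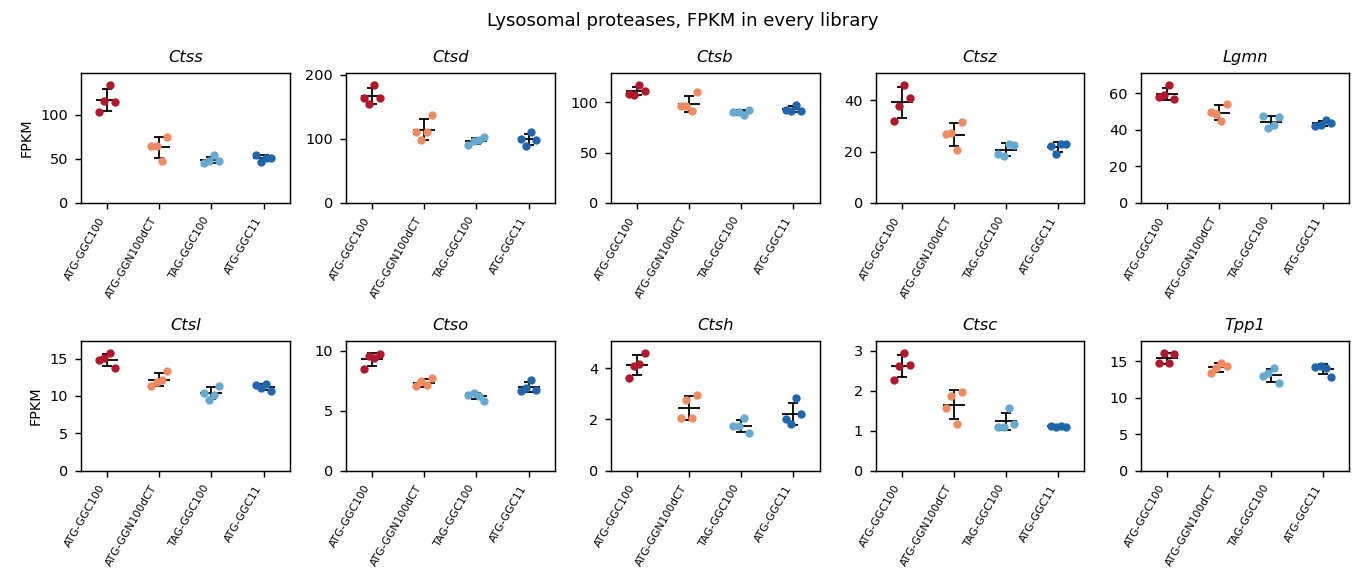
FPKM of 10 lysosomal proteases in each library (points), with group mean and SD (bars); every axis starts at 0. For Ctss, Ctsd and Ctsz the ATG-GGC100 libraries are above all other libraries, whereas Tpp1 shows 15.4 ± 0.741 FPKM in ATG-GGC100 and 13.9 ± 0.683 FPKM in ATG-GGC11.

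Glycosidases trim sugars from glycoproteins and glycolipids. Hexa, the alpha subunit of beta-hexosaminidase, missing in Tay-Sachs disease, had 33, 33.2, 38.1 and 33.8 FPKM in ATG-GGC100 libraries, against 24.3, 25.7, 28.1 and 28.5 FPKM in ATG-GGC11 (log2 fold change 0.33, SE 0.07, adjusted p = 0.0107). The groups did not overlap. Without ATG-GGC100 replicate 3 or ATG-GGC11 replicate 1 the Hexa call was lost, with an adjusted p of up to 0.0616.

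Man2b1, the lysosomal alpha-mannosidase, averaged 7.01 ± 0.5 FPKM in ATG-GGC100 and 4.96 ± 0.695 FPKM in ATG-GGC11 (log2 fold change 0.45, SE 0.10, adjusted p = 0.012). Fuca1, the lysosomal fucosidase, averaged 9.79 ± 0.99 FPKM in ATG-GGC100 and 7.48 ± 0.861 FPKM in ATG-GGC11 (0.35, SE 0.09, adjusted p = 0.0267). Fuca1 was the one called gene of this comparison whose libraries overlapped, through ATG-GGC100 replicate 1. Its call was lost without any one of ATG-GGC100 replicates 2, 3 and 4 or ATG-GGC11 replicates 1 and 2 (adjusted p up to 0.119). Other glycosidases known for storage diseases did not pass: Glb1, beta-galactosidase, had a log2 fold change of 0.19 (adjusted p = 0.34), Gaa, acid alpha-glucosidase, 0.09 (0.701), Gusb, beta-glucuronidase, 0.22 (0.204) and Naglu, which acts on heparan sulfate, 0.46 with an SE of 0.16 (0.116). The class median was 0.19. Hexa overlaps Tmem202 in the genome.

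Of the enzymes that act on sulfate, lipid and phosphate bonds, few passed. Sumf1, which activates all sulfatases by making their catalytic formylglycine and works in the endoplasmic reticulum, had 8.1, 8.68, 8.82 and 9.21 FPKM in ATG-GGC100 libraries, against 6.71, 6.68, 6.9 and 7.34 FPKM in ATG-GGC11. The groups did not overlap (log2 fold change 0.29, SE 0.07, adjusted p = 0.0239), but the call was lost without any one of ATG-GGC100 replicates 2, 3 and 4 or ATG-GGC11 replicates 1, 2 and 3 (adjusted p up to 0.087), and with no filter. Npc2, the soluble cholesterol carrier of the lysosome, averaged 14.4 ± 1.12 FPKM in ATG-GGC100 and 11.3 ± 1.2 FPKM in ATG-GGC11 (0.31, SE 0.08, adjusted p = 0.0411). This call did not hold without any one of ATG-GGC100 replicates 2, 3 and 4, ATG-GGC11 replicates 1, 2 and 4 or TAG-GGC100 replicates 1, 2 and 4 (adjusted p up to 0.166). Psap, in spite of its weight in the sums, did not pass: it had 583, 644, 575 and 565 FPKM in ATG-GGC100 libraries, against 503, 533, 565 and 518 FPKM in ATG-GGC11, where replicate 3 reached into the ATG-GGC100 range. Its log2 fold change was 0.12 (SE 0.06, adjusted p = 0.353). Ids (0.08, adjusted p = 0.594), Gm2a, the activator of hexosaminidase (0.19, adjusted p = 0.156), and Lipa, acid lipase (-0.19, SE 0.11, adjusted p = 0.396), did not pass.

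The membrane proteins held the steepest changes of the pathway and its only fall. Cd68, a heavily glycosylated LAMP family protein of phagocyte lysosomes on chromosome 11 (69555039 to 69556979, minus strand), had 13.4, 16.8, 15.8 and 13.7 FPKM in ATG-GGC100 libraries, against 5.73, 5.24, 7.6 and 5.89 FPKM in ATG-GGC11. All ATG-GGC100 libraries were well above, and the log2 fold change was 1.24 (SE 0.16, adjusted p = 8.73e-05). Slc11a1, also called Nramp1, which pumps iron and manganese out of phagosomes, was low in level, with 20 to 102 counts a library over all groups. It had 1.48, 1.61, 1.51 and 1.41 FPKM in ATG-GGC100 libraries, against 0.67, 0.52, 0.71 and 0.5 FPKM in ATG-GGC11 (log2 fold change 1.27, SE 0.19, adjusted p = 0.000409). This was the largest fold change of any called pathway gene in the comparison.

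Laptm5, a lysosomal membrane protein of blood-lineage cells, averaged 11.7 ± 0.52 FPKM in ATG-GGC100 and 6.92 ± 0.879 FPKM in ATG-GGC11 (0.71, SE 0.11, adjusted p = 0.00101). Cd63, a tetraspanin of late endosomes, averaged 14.1 ± 1.61 FPKM in ATG-GGC100 and 8.66 ± 1.09 FPKM in ATG-GGC11 (0.66, SE 0.11, adjusted p = 0.00185). Neither group pair overlapped. The LAMP proteins, present in every cell, had smaller fold changes. Lamp2, which serves in autophagy, averaged 11.7 ± 0.119 FPKM in ATG-GGC100 and 9.39 ± 0.39 FPKM in ATG-GGC11 (0.27, SE 0.06, adjusted p = 0.013, lost without ATG-GGC11 replicate 4 with an adjusted p of 0.0608). Lamp1 had 145, 146, 147 and 142 FPKM in ATG-GGC100 libraries, against 128, 123, 130 and 129 FPKM in ATG-GGC11. These did not overlap, and the log2 fold change of 0.15 (SE 0.05) did not pass (adjusted p = 0.134). Scarb2, also called LIMP-2 (0.03), Npc1, the cholesterol exporter (-0.13), Cln3, missing in juvenile ceroid lipofuscinosis (0.17), and Mcoln1, the calcium channel TRPML1 (0.04), were not called, with adjusted p values of 0.822, 0.486, 0.513 and 0.806 in that order.

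Abcb9, an ABC transporter that carries peptides into lysosomes, was the single gene that fell. It had 7.65, 6.25, 7.81 and 7.36 FPKM in ATG-GGC100 libraries, against 9.44, 8.74, 9.72 and 10.8 FPKM in ATG-GGC11. The groups did not overlap, the log2 fold change was -0.45 (SE 0.08, adjusted p = 0.00271), and no single left-out library ended the call.

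**Figure D4:**
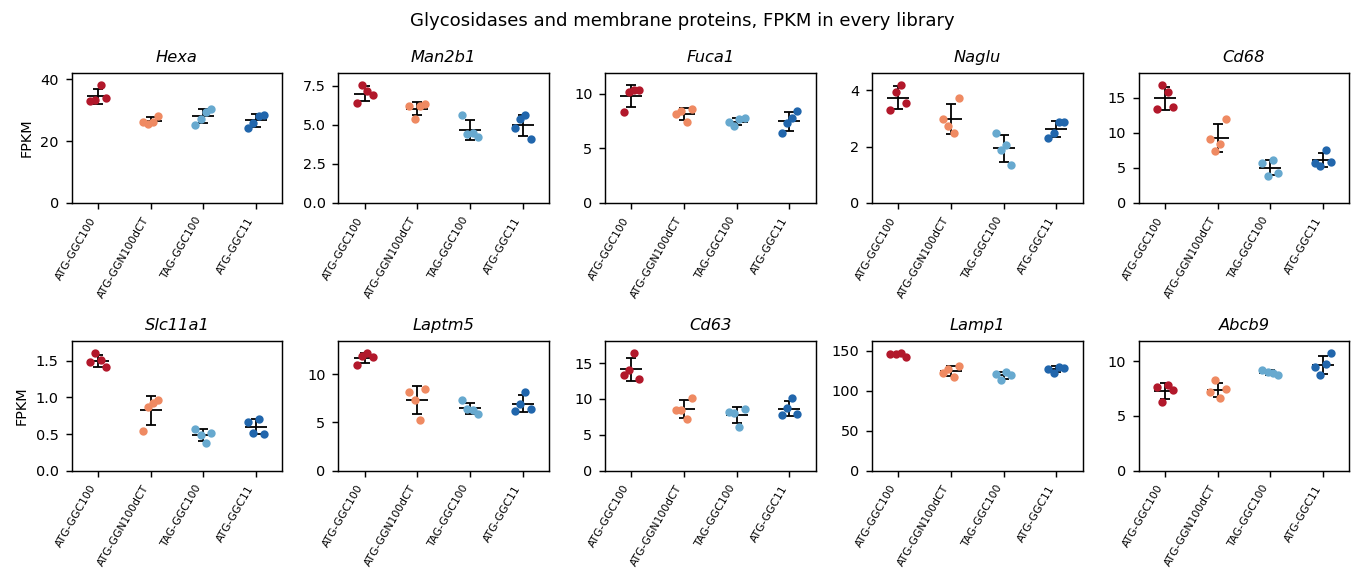
FPKM of 4 glycosidases and 6 membrane proteins in each library (points), with group mean and SD (bars); every axis starts at 0. Cd68 and Slc11a1 are highest in the ATG-GGC100 libraries, with ATG-GGN100dCT next by mean, and Abcb9 is low in ATG-GGC100 (7.27 ± 0.703) and ATG-GGN100dCT (7.38 ± 0.658), against ATG-GGC11 (9.66 ± 0.834).

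Of the proton pump and the transport machinery, 1 gene passed in ATG-GGC100 against ATG-GGC11. For the 8 V-ATPase subunits, log2 fold changes ran from -0.06 to 0.34 and their 95% intervals from -0.21 to 0.59. Each interval is for 1 subunit alone, without adjustment over the 8. Tcirg1, the a3 subunit of the membrane sector and the one known from osteoclasts and macrophages, had the highest value. It had 3.03, 3.36, 3.36 and 2.96 FPKM in ATG-GGC100 libraries, against 2.43, 2.38, 2.85 and 2.03 FPKM in ATG-GGC11. They did not overlap, and the test did not pass (adjusted p = 0.121). The abundant Atp6v0d1 (0.04, adjusted p = 0.822), Atp6v0a1 (0.05), Atp6v1h (-0.04) and Atp6ap1 (0.03), an assembly factor, were close to 0. Atp6v1h belongs to the V1 sector, the cytosolic part that burns ATP. Of 9 other tested V1 subunits, which the table does not annotate to the pathway, none passed with edgeR or DESeq2. None of them had an unadjusted p under 0.05.

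Of the 25 adaptor and clathrin subunits, Ap1s1, a small subunit of the AP-1 adaptor of the trans-Golgi, rose. It had 122, 155, 142 and 122 FPKM in ATG-GGC100 libraries, against 84.6, 99.1, 109 and 107 FPKM in ATG-GGC11. The libraries did not overlap (log2 fold change 0.40, SE 0.09, adjusted p = 0.0127), and the call was lost without any one of ATG-GGC100 replicates 2 and 3 or ATG-GGC11 replicate 1 (adjusted p up to 0.0593). Its partner subunit Ap1b1 (0.07, adjusted p = 0.617), the neuronal Ap3b2 (0.05) and the clathrin heavy chain Cltc (-0.03, adjusted p = 0.869) did not pass. The other AP-1 small subunits did not pass either. Ap1s2 averaged 9.71 FPKM in ATG-GGC100 and 9.63 FPKM in ATG-GGC11, and Ap1s3 1.23 and 1.24 FPKM in that order. The class median was -0.03 and turned to 0.02 with library totals as the scaling, so it carries no direction. Of the 6 targeting genes, none passed, and their 95% intervals ran from -0.24 to 0.52: the mannose 6-phosphate receptors M6pr (0.07, adjusted p = 0.59) and Igf2r (0.08, adjusted p = 0.795) and the sortilin receptor Sort1 (-0.08, adjusted p = 0.676) were among those that did not pass.

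The comparison of ATG-GGC100 with TAG-GGC100 sets the long repeat with the ATG against the same repeat with a TAG. Here 28 pathway genes rose and 1 fell, against 4.05% and 3.39% of all genes tested (7.44% either way). The groups did not overlap for 49 genes, against 13.5% of all genes. Of the classes, 9 proteases, 6 glycosidases, 2 sulfatases, 2 other hydrolases, 8 membrane proteins and 1 adaptor subunit rose. Of the 12 microglial markers 10 were higher in ATG-GGC100 (median 0.89), as were 2 of 5 astrocyte markers (Sox9 and Aqp4) and 2 of 5 border macrophage markers (Cd163 and Mrc1), and 1 of 3 endothelial markers (Flt1) was lower. The part of these lists was not tested. This comparison shares its ATG-GGC100 libraries with the one above.

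The proteases that rose were again led by Ctss, with 117 ± 12.5 FPKM in ATG-GGC100 and 48.8 ± 3.84 FPKM in TAG-GGC100 (log2 fold change 1.22, SE 0.10, adjusted p = 8.44e-06). Cd68 had 14.9 ± 1.63 FPKM in ATG-GGC100 and 5.02 ± 1.08 FPKM in TAG-GGC100 (1.54, SE 0.16, adjusted p = 1.62e-05). Naglu, not called against ATG-GGC11, had 3.29, 3.93, 4.19 and 3.55 FPKM in ATG-GGC100 libraries, against 2.5, 1.88, 2.06 and 1.34 FPKM in TAG-GGC100. Its libraries were clear of each other (0.91, SE 0.16, adjusted p = 0.00177). Gm2a also passed here, at 16.3 ± 1.33 FPKM in ATG-GGC100 and 12.5 ± 0.627 FPKM in TAG-GGC100 (0.35, SE 0.07, adjusted p = 0.00541). So did Lamp1, at 145 ± 2.21 FPKM in ATG-GGC100 and 119 ± 4.49 FPKM in TAG-GGC100 (0.24, SE 0.05, adjusted p = 0.00753). Abcb9 fell, with 7.27 ± 0.703 FPKM in ATG-GGC100 and 8.95 ± 0.187 FPKM in TAG-GGC100 (-0.34, SE 0.08, adjusted p = 0.0158, lost without replicate 2 of either group, up to 0.0567). Genes that passed here and not against ATG-GGC11 are not shown to differ between those 2 comparisons.

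TAG-GGC100 against ATG-GGC11 gave no call among the pathway genes with edgeR or with DESeq2, and 0.00564% of all genes tested, which is 1 gene, were called in that comparison. At an unadjusted p under 0.05, 10 pathway genes (8.48%) were found, against 6.87% of all genes. Libraries did not overlap for 4 pathway genes, against 4.1% of all genes. The median log2 fold change was -0.02. Naglu had one of the lower values, at 1.95 ± 0.48 FPKM in TAG-GGC100 and 2.64 ± 0.289 FPKM in ATG-GGC11 (log2 fold change -0.44, adjusted p = 0.552). Ctss was 48.8 ± 3.84 FPKM in TAG-GGC100 and 50.5 ± 3.3 FPKM in ATG-GGC11, and Cd68 5.02 ± 1.08 FPKM in TAG-GGC100 and 6.12 ± 1.03 FPKM in ATG-GGC11, with libraries that overlapped for both genes.

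ATG-GGN100dCT differed from ATG-GGC11 in more genes overall than ATG-GGC100 did, and in fewer genes of the pathway. Of all genes tested 3.17% rose and 3.49% fell (6.66% either way), whereas 3 pathway genes rose and 1 fell. That count of 4 was 8 with library totals as the scaling, 7 with DESeq2 or with no filter on low counts, and 2 with only the 8 libraries compared. Libraries did not overlap for 11 pathway genes, against 14.2% of all genes, and 28 genes (23.7%) had an unadjusted p under 0.05, against 23.8% of all. Across single left-out libraries the count ran between 1 and 6, and it was 3 without ATG-GGN100dCT replicate 3, 1 without replicate 1 or 4 of either group, and 2 without replicate 2 or 3 of ATG-GGC11. None of the 12 microglial markers passed with edgeR or DESeq2 (median -0.05, 1 at an unadjusted p under 0.05). Of 5 astrocyte markers 3 fell. The summed level of 5 hepatocyte markers was 17.8 to 20.1 FPKM in ATG-GGN100dCT, against 2.88 to 4.45 FPKM in ATG-GGC11. Of these 5, Ttr had 10 to 149 counts a library over all groups. Alb had 321 to 398 counts in ATG-GGN100dCT libraries and at most 3 in any other library. The part of these lists was not tested.

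Ctsc was the 1 protease that rose, with 1.58, 1.88, 1.18 and 1.98 FPKM in ATG-GGN100dCT libraries, against 1.13, 1.1, 1.13 and 1.09 FPKM in ATG-GGC11. The lowest ATG-GGN100dCT library, replicate 3, sat just above the ATG-GGC11 range (log2 fold change 0.52, SE 0.15, adjusted p = 0.0391). The call was lost without any one ATG-GGC11 library or ATG-GGN100dCT replicates 1, 2 or 4 (adjusted p up to 0.125), and with limma. Cd68 had 9.12, 7.46, 8.46 and 12 FPKM in ATG-GGN100dCT libraries, against 5.73, 5.24, 7.6 and 5.89 FPKM in ATG-GGC11. One library of each group crossed over (0.55, SE 0.16, adjusted p = 0.0422), and the call was lost without any one of ATG-GGN100dCT replicates 1, 3 and 4, ATG-GGC11 replicates 1, 2 and 4 or ATG-GGC100 replicate 3 (adjusted p up to 0.152). Mcoln1, the channel that releases lysosomal calcium, had 9.37, 9.46, 9.52 and 9.29 FPKM in ATG-GGN100dCT libraries, against 8.07, 8.03, 7.68 and 8.12 FPKM in ATG-GGC11. Both groups were tight and apart (0.20, SE 0.06, adjusted p = 0.0483), but the call was lost without any one of the 8 libraries compared, TAG-GGC100 replicates 1, 2 and 3 or ATG-GGC100 replicates 1 and 4 (adjusted p up to 0.135), and with no filter. Abcb9 fell, with 7.22, 8.23, 6.64 and 7.42 FPKM in ATG-GGN100dCT libraries, against 9.44, 8.74, 9.72 and 10.8 FPKM in ATG-GGC11. It was the 1 call that no single library ended (-0.43, SE 0.08, adjusted p = 0.00467, up to 0.0191). With only the 8 libraries compared, the calls of Ctsc, Cd68 and Mcoln1 were lost as well. Those of Ctsc and Mcoln1 were also lost with a block for the replicate number.

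ATG-GGN100dCT against TAG-GGC100 gave 5 rises and 2 falls among the pathway genes, against 4.3% and 4.4% of all genes tested (8.69% either way). Libraries did not overlap for 13 pathway genes, against 12.9% of all genes. Cd68 had 9.12, 7.46, 8.46 and 12 FPKM in ATG-GGN100dCT libraries, against 5.68, 3.89, 6.17 and 4.33 FPKM in TAG-GGC100 (log2 fold change 0.85, SE 0.16, adjusted p = 0.00512). This call alone survived every left-out library. Naglu (0.57, adjusted p = 0.0351), Man2b1 (0.33, adjusted p = 0.0405), Slc11a1 (0.70, adjusted p = 0.0353) and Abca2, a lipid transporter of endosomes that oligodendrocytes and neurons express (0.31, adjusted p = 0.0371), rose as well, and Gga1, a clathrin adaptor for mannose 6-phosphate receptors (-0.22, adjusted p = 0.0453), and Abcb9 (-0.32, adjusted p = 0.0221) fell. Abca2 had 32.8, 31.6, 33.6 and 37.4 FPKM in ATG-GGN100dCT libraries, against 25.5, 29.2, 29.5 and 21.8 FPKM in TAG-GGC100, without overlap. Naglu, Man2b1 and Slc11a1 overlapped between the groups. These 6 calls other than Cd68 were each lost, among other libraries, without TAG-GGC100 replicate 2 or, for Abca2, replicate 1, and without ATG-GGN100dCT replicate 4, with adjusted p values of up to 0.135. With only the 8 libraries compared, or with a block for the replicate number, Naglu, Man2b1, Slc11a1, Abca2 and Gga1 were not called. Slc11a1 and Gga1 were not called with no filter either, Gga1 not with library totals (adjusted p up to 0.0994 over these settings), and Gga1 and Abcb9 not with limma (0.0512 for Abcb9). The count of 7 became 5 without ATG-GGN100dCT replicate 3, 13 without its replicate 2, 1 without its replicate 4, 2 without TAG-GGC100 replicate 2 and 3 without TAG-GGC100 replicate 4. It was 12 with library totals as the scaling, 11 with DESeq2 and 2 with only the 8 libraries compared. Of the marker genes, Aif1 of microglia and 3 of 4 tested hepatocyte genes (Apoa2, Ahsg and Alb) were higher in ATG-GGN100dCT, and Gja1 of astrocytes was lower. The summed level of the hepatocyte markers was 17.8 to 20.1 FPKM in ATG-GGN100dCT, against 0.87 to 8.53 FPKM in TAG-GGC100. The highest TAG-GGC100 sum was that of replicate 4, which had 149 counts of Ttr and 1 of Alb. The part of these genes was not tested.

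Set directly against each other, ATG-GGC100 was higher than ATG-GGN100dCT for 19 pathway genes and lower for none (5 at an unadjusted p under 0.05, 1 with DESeq2), while 1.19% of all genes tested were higher and 0.857% lower (2.05% either way). The libraries did not overlap for 29 pathway genes, against 7.94% of all genes. Proteases made up 8 of the 19, membrane proteins 7, glycosidases 3 and other hydrolases 1. The count fell to 13 without ATG-GGN100dCT replicate 3 and to 10 without ATG-GGC100 replicate 3. Of the 12 microglial markers 10 were higher in ATG-GGC100 (median 0.68), as were 3 of 5 astrocyte markers (Slc1a3, Aqp4 and Gja1) and 2 of 5 border macrophage markers (Mrc1 and Pf4). Of 4 tested hepatocyte markers 3 were lower (Apoa2, Ahsg and Alb), and Ttr was not called. The summed level of the astrocyte markers was 142 to 156 FPKM in ATG-GGC100, against 114 to 121 FPKM in ATG-GGN100dCT, and that of the hepatocyte markers 1.54 to 3.9 FPKM in ATG-GGC100, against 17.8 to 20.1 FPKM in ATG-GGN100dCT. The part of these lists in the result was not tested.

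Ctss had 104, 115, 134 and 115 FPKM in ATG-GGC100 libraries, against 65, 64, 47.3 and 75.1 FPKM in ATG-GGN100dCT (log2 fold change 0.90, SE 0.10, adjusted p = 7.22e-05). Ctsd had 163, 155, 184 and 164 FPKM in ATG-GGC100 libraries, against 110, 98.2, 110 and 138 FPKM in ATG-GGN100dCT (0.55, SE 0.09, adjusted p = 0.00109). In both genes every ATG-GGC100 library stood above every ATG-GGN100dCT library, and replicate 3 had the lowest Ctss of its group. Hexa averaged 34.5 ± 2.4 FPKM in ATG-GGC100 and 26.5 ± 1.18 FPKM in ATG-GGN100dCT (0.38, SE 0.07, adjusted p = 0.00504). Cd63 averaged 14.1 ± 1.61 FPKM in ATG-GGC100 and 8.57 ± 1.21 FPKM in ATG-GGN100dCT (0.72, SE 0.11, adjusted p = 0.00134), which places ATG-GGN100dCT at the ATG-GGC11 mean of 8.66 FPKM. Cd68, by contrast, had its ATG-GGN100dCT mean of 9.26 ± 1.95 FPKM between 14.9 ± 1.63 FPKM in ATG-GGC100 and 6.12 ± 1.03 FPKM in ATG-GGC11. Gusb passed in this comparison, with 3.56, 3.95, 3.77 and 3.61 FPKM in ATG-GGC100 libraries, against 2.89, 2.64, 2.84 and 3.09 FPKM in ATG-GGN100dCT (0.38, SE 0.09, adjusted p = 0.033). This call did not hold without any one of replicates 1, 2 and 3 of either group (adjusted p up to 0.091). Nor did it hold with no filter, a block for the replicate number or only the 8 libraries compared. Abcb9 had 7.27 ± 0.703 FPKM in ATG-GGC100 and 7.38 ± 0.658 FPKM in ATG-GGN100dCT and was not called.

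The CLEAR element, to which TFEB and its relatives bind, has the E-box CACGTG with T before and A after it as its core, a word that reads the same on both strands. It was searched in the RefSeq promoters of GRCm38.p6, from 250 bases before to 50 after each gene's start, which matched 95 of the 118 genes. The core stood in a promoter of 9 of them (9.47%), against 1.96% of the 12503 tested genes with a promoter and 1.12% of all 27025 genes with a promoter. The shorter E-box, of which the core is a part, stood in 24.2%, 11.1% and 8.09% of them in that order. Of the genes that rose in ATG-GGC100 against ATG-GGC11, 2 of 18 with a promoter held the core (11.1%), and of the pathway genes that did not rise, 7 of 77 (9.09%). None of the 22 adaptor and clathrin genes with a promoter held it. The windows below are shown because they hold the core in the 2 genes that rose in ATG-GGC100 (Ctsd, Sumf1), in 1 that rose in ATG-GGN100dCT (Mcoln1) and in 1 that did not pass (Cln3). Capitals mark the core, and each is written 5′ to 3′ on the gene's strand.
Ctsd, chr7:142387899-142387946, minus strand: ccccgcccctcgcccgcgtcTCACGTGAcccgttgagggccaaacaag
Sumf1, chr6:108185584-108185615, minus strand: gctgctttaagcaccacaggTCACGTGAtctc
Mcoln1, chr8:3500453-3500500, plus strand: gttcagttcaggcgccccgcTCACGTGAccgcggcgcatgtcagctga
Cln3, chr7:126583331-126583378, minus strand: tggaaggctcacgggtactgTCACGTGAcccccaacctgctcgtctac
The core began 99 bases before the start in Ctsd, 12 in Sumf1, 46 in Mcoln1 and 122 in Cln3. A match is a description of the letters and does not show that a factor binds there.

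Genes that work with the pathway but are not annotated to it were looked up from lists of their own. Against ATG-GGC11, none of the 3 tested TFEB family genes passed in ATG-GGC100 with edgeR or DESeq2, or had an unadjusted p under 0.05, and Tfeb itself had a log2 fold change of -0.03 (adjusted p = 0.967). In ATG-GGN100dCT, Tfe3 rose, with 4.83, 4.55, 5.07 and 4.61 FPKM in ATG-GGN100dCT libraries, against 3.78, 4.04, 3.9 and 3.64 FPKM in ATG-GGC11. The groups were apart (0.27, SE 0.07, adjusted p = 0.028), and the call was lost without any one of replicates 1, 3 and 4 of either group (adjusted p up to 0.0965), and with no filter. None of 19 genes of the Ragulator and mTORC1 complexes, which sense nutrients at the lysosome, and none of 11 genes of the HOPS and CORVET tethers passed in ATG-GGC100 against ATG-GGC11 with edgeR or DESeq2, with 1 gene of each list at an unadjusted p under 0.05.

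Of 20 further genes of lysosomal proteins outside the annotation, 6 rose in ATG-GGC100 against ATG-GGC11 and none fell, with a list median of 0.18. Over all genes tested, 2.2% rose and 1.3% fell, and this list was chosen with earlier results of these data known. Lyz2, the lysozyme of macrophages, had 26.2, 29.2, 32.7 and 34.1 FPKM in ATG-GGC100 libraries, against 5.99, 5.48, 12.8 and 3.91 FPKM in ATG-GGC11 (log2 fold change 2.06, SE 0.33, adjusted p = 0.00345). Grn, progranulin, a lysosomal protein whose loss causes frontotemporal dementia or ceroid lipofuscinosis, had 18.9, 20.4, 21.1 and 19.5 FPKM in ATG-GGC100 libraries, against 12.6, 12.9, 14.8 and 12.8 FPKM in ATG-GGC11 (0.54, SE 0.07, adjusted p = 0.0001). In ATG-GGN100dCT it had 15.7, 15.8, 14.9 and 18.1 FPKM, every library above those of ATG-GGC11 (0.23, SE 0.07, adjusted p = 0.0494). That call was lost without any one of 13 of the 16 libraries (adjusted p up to 0.162). It was also lost with no filter, a block for the replicate number or only the 8 libraries compared. Gpnmb, a membrane glycoprotein of phagocytes with full lysosomes, rose in ATG-GGC100 and in ATG-GGN100dCT. It had 0.88, 1.88, 1.46 and 1.46 FPKM in ATG-GGC100 libraries and 1.12, 0.77, 1.41 and 1.57 FPKM in ATG-GGN100dCT libraries, against 0.55, 0.31, 0.35 and 0.44 FPKM in ATG-GGC11. Neither group overlapped ATG-GGC11, with log2 fold changes of 1.74 (SE 0.25, adjusted p = 0.000343) in ATG-GGC100 and 1.52 (adjusted p = 0.00186) in ATG-GGN100dCT. Slc15a3, a lysosomal peptide transporter of immune cells (1.59, adjusted p = 0.0013), Pld4, a lysosomal nuclease (0.86, adjusted p = 0.0013), and Cpq, a carboxypeptidase (0.47, adjusted p = 0.015, 0.0701 without ATG-GGC11 replicate 1), rose in ATG-GGC100. Among 4 tested inhibitors of cathepsins, Cst7, cystatin F, which enters lysosomes and blocks cathepsin C, rose in ATG-GGC100, with 4.14, 2.91, 5.67 and 4.33 FPKM in ATG-GGC100 libraries, against 0.06, 0.05, 0.18 and 0.16 FPKM in ATG-GGC11. The ATG-GGC11 libraries were near 0, and the log2 fold change was 5.15 (SE 0.53, adjusted p = 2.05e-05). Cst7 had 0.86, 0.33, 0.12 and 1.2 FPKM in ATG-GGN100dCT libraries, which overlapped ATG-GGC11 (2.38, SE 0.67, adjusted p = 0.0399). That call was lost without any one ATG-GGC11 library or ATG-GGN100dCT replicates 1 or 4 (adjusted p up to 0.142), and with limma. Against TAG-GGC100, ATG-GGN100dCT was also higher for Grn (0.30, adjusted p = 0.0135) and Cst7 (2.78, adjusted p = 0.024). Both of these calls were lost without TAG-GGC100 replicate 2 or ATG-GGN100dCT replicate 4 (adjusted p up to 0.092), and that of Cst7 also without TAG-GGC100 replicate 4 or ATG-GGN100dCT replicate 1 and with limma.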

How the data were processed

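Bulk RNA sequencing of mouse cerebral cortex was deposited as 1 table for 16 libraries, with raw counts per gene and FPKM side by side per the file headers. The deposited FPKM equal counts over exonic length and library total within 0.005, in every gene and library checked. Per the labels' protocols, poly(A) RNA was randomly primed and amplified by PCR, with no molecular identifiers. The submitters' processing notes name FastQC 0.10.1, cutadapt 1.9.1, GRCm39 and mm10; aligner, counter and annotation: not given in the sources used here. Coordinates of genes are those of the table, whose build is not named, while promoter coordinates are those of GRCm38.p6. The 4 rows of construct sequence (at most 0.00714% of a library's counts) were left out. Groups came from the construct code in each title and the series' key.

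Counts were filtered with filterByExpr (minimum count 10), scaled by TMM, and tested in R 4.3.3 with edgeR 4.0.16 (robust glmQLFit, glmQLFTest, two-sided), with all 16 libraries in 1 fit, the group as the only term and 6 comparisons. The common biological coefficient of variation was 0.112. In a simulation of ATG-GGC100 against ATG-GGC11 over 17504 genes the test found 70% of planted 1.5-fold changes, 82% of 2-fold, 94% of 3-fold and 98% of 4-fold changes, with 7 false among 179 calls. Changes were planted only in genes above a minimum mean level, so these rates do not cover the genes with the lowest counts. Alternatives were DESeq2 1.42.0, limma 3.58.1 on log2(FPKM + 1), other scalings and filters, a block for the replicate number, fits of only the 8 libraries compared, and leaving out each library.

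The pathway genes, roles and lists were chosen with earlier results of these data known. Named genes were a set chosen in the same way, up to 6 called genes of each role or list by smallest p in each comparison, and the most abundant gene of each role. Some genes that met this rule are not reported here.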

Additional observations from a re-analysis of the deposited data

Results flagged for a closer look

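In 10 of 256 groups of 4 values (64 named genes in 4 groups), 1 library stood apart from the other 3 by Dixon's criterion. Chance gives about 1 in 20 such groups, so this number is no more than chance would give. All values are FPKM. Hexa stood at 38.12 in ATG-GGC100 replicate 3, with the others at 33.04 to 33.77, and Fuca1 at 8.31 in ATG-GGC100 replicate 1, with the others at 10.17 to 10.36. Plekhm1, which tethers lysosomes, stood at 5.18 in ATG-GGC100 replicate 4 (others 4.23 to 4.3). In ATG-GGN100dCT, Lamp2 stood at 10.63 in replicate 4 (others 9.11 to 9.3) and Man2b1 at 5.41 in replicate 2 (others 6.21 to 6.34). In ATG-GGC11, replicate 3 held the outer value of Ctsb at 97.12 (others 91.26 to 91.83), Grn at 14.8 (12.6 to 12.92) and Cltc at 62 (68.83 to 70.01). Also in ATG-GGC11, Atp6v0d1 stood at 104.2 in replicate 1 (others 112 to 113.15) and Slc15a3 at 0.2 in replicate 4 (0.27 to 0.28).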

How the results depend on the processing

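Of 115 calls on named or pathway genes over the comparisons, 115 held with DESeq2 and with a filter of 10 counts in 4 libraries, 114 with median-ratio scaling, 110 with library totals, 105 with limma on log2(FPKM + 1), 98 with no filter, 91 with the replicate block, 83 of 113 with the 8 libraries compared, and 85 to 110 with 1 library left out. No call reversed. With library totals as scaling, the median over all genes became 0.04 in ATG-GGC100 against ATG-GGC11 and 0.05 in ATG-GGN100dCT against ATG-GGC11. With TMM it was -0.0015 and 0.0055. The pathway median became 0.11 and 0.069 in these, from 0.07 and 0.025. It became 0.14 in ATG-GGC100 against TAG-GGC100 and 0.10 in ATG-GGN100dCT against TAG-GGC100, and the cause was not tested. The share of rises among all calls moved to 74.8% from 62.8%, to 67.1% from 47.6%, to 70.1% from 54.5% and to 65.7% from 49.4% in these 4 comparisons. The pathway count for ATG-GGN100dCT against ATG-GGC11, 4 in the report, was 8 with totals, 7 with no filter, 7 with DESeq2, and 2 with the 8 libraries compared; that against TAG-GGC100, 7 in the report, was 12, 11 with DESeq2 and 2 with the 8 libraries compared. With limma the medians of these 2 were 0.060 and 0.076. For ATG-GGC100 against ATG-GGN100dCT, the fit of the 8 libraries compared called 10. The cause was not tested, except that these fits hold fewer samples. Leaving out 1 library gave 16 to 23 calls for ATG-GGC100 against ATG-GGC11, 23 to 31 against TAG-GGC100 and 10 to 20 against ATG-GGN100dCT, 1 to 6 for ATG-GGN100dCT against ATG-GGC11 and 1 to 13 against TAG-GGC100, and 0 to 0 for TAG-GGC100 against ATG-GGC11. The pathway medians ran from 0.06 to 0.08, 0.083 to 0.11, 0.06 to 0.08, 0.0023 to 0.027, 0.04 to 0.06 and -0.03 to -0.02 in the same order. Searching CACGTG alone in place of the longer core gave 24.2% of the pathway genes with a promoter against 9.47%. Replicate numbers did not pair the libraries: over 24 same-numbered pairs the correlation of deviations from group means ran from -0.198 to 0.179 (median -0.031). With the replicate block, the pathway counts were 21, 26 and 14 for ATG-GGC100 (against ATG-GGC11, TAG-GGC100 and ATG-GGN100dCT), 2 and 2 for ATG-GGN100dCT (against ATG-GGC11 and TAG-GGC100) and 0 for TAG-GGC100. Depth limits the low genes: Slc11a1 had 20 to 102 counts a library.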

Other observations

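Among the other lists set beside the pathway, a few genes passed in the comparisons of ATG-GGN100dCT. Mlst8, an mTORC1 subunit, was higher than in ATG-GGC11 (log2 fold change 0.25, adjusted p = 0.0386, edgeR) and Pld3, a lysosomal nuclease of neurons, was lower (-0.26, adjusted p = 0.0376). Against TAG-GGC100, Atp6v1g2, the neuronal G subunit of the V1 sector, was higher, at 231 ± 27 FPKM in ATG-GGN100dCT and 192 ± 7.7 FPKM in TAG-GGC100 (0.23, SE 0.07, adjusted p = 0.0434), and Lamtor5, a Ragulator subunit, was lower (-0.35, adjusted p = 0.0321). Plekhm1 was lower than in TAG-GGC100 both in ATG-GGC100 (-0.29, adjusted p = 0.0428) and in ATG-GGN100dCT (-0.29, adjusted p = 0.0426). Each of these calls was lost when any of 5 or more single libraries was left out. Cst3, cystatin C, was higher in ATG-GGC100 than in TAG-GGC100 (0.35, adjusted p = 0.0351), lost without any one of replicates 1, 2 and 3 of either group (adjusted p up to 0.116). That call was also lost with no filter and with a block for the replicate number.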
